A study of Mus musculus with 6 samples.

Results

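The genes described here are 10 immediate early genes of the mouse, namely Fos, Fosb, Junb, Arc, Egr1, Egr2, Egr3, Egr4, Npas4 and Nr4a1, out of 54752 genes counted by RNA-seq in the whole right hippocampus. They were matched by symbol, by a rule that uses no measured value, but were chosen with earlier results of these data known. All 10 had a matching Ensembl identifier and all 10 passed the filter on low counts that left 18617 genes for testing. The libraries came from 3 sham mice and 3 mice with bilateral carotid artery stenosis (BCAS), a model of reduced blood flow to the brain, with 1 library per mouse. All 6 mice were male, wild type and of the strain labelled C57BL/6 (C57BL/6 J in the methods), and the labels give a time of 14 weeks, read here as age. In BCAS mice both common carotid arteries were wrapped in microcoils, the narrower one on the right. Sham mice underwent the same isoflurane anesthesia and exposure of the arteries with no coil placed, so surgery and anesthesia are shared by the groups. Tissue was taken 3 weeks after surgery. How long the hippocampus was handled before RNA extraction, and whether these mice had been imaged for blood flow under isoflurane, is not given in the sources used here, and the part of either in the values was not tested.

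Immediate early genes are transcribed within minutes of a stimulus, before any new protein is made, and their mRNAs decay quickly. In hippocampal neurons the stimulus is synaptic activity, which lets calcium in through NMDA receptors and voltage-gated channels and switches on kinases that act on the factors CREB and SRF already bound near these genes. Most of the proteins are transcription factors, while Arc acts at the synapse itself, and glial and immune cells also transcribe several of these genes when stimulated. Their levels can change within the time that dissection takes, and each gene is therefore given in each library.

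Total counts ranged from 29652456 to 35607098 per library, and values are CPM, the counts of a gene as a share of its library, scaled by the TMM method. The tissue was checked by marker genes. Prox1, a transcription factor of dentate granule cells, averaged 97.0 ± 20.1 CPM in sham mice and 88.2 ± 29.1 CPM in BCAS mice (SD, n = 3 each). Wfs1, enriched in CA1 pyramidal neurons, averaged 171 ± 12.2 and 138.5 ± 33.3 CPM. Both were well above 3 counts in all libraries, as were all 5 CA1 and all 5 dentate markers. Wfs1 and Prox1 were not called, while 3 CA1 and 2 dentate markers were called lower in BCAS mice, against 13.2% of all tested genes. Among these Fibcd1, a CA1 marker named after its values were seen, was at 0.266 times its sham level. Choroid plexus markers set single libraries apart irrespective of group. Their summed level, mostly the thyroxine carrier Ttr, with the ageing-linked Kl next, was 1004, 4135 and 71.0 CPM in sham mice 1 to 3 and 6006, 48.0 and 3254 CPM in BCAS mice 1 to 3.

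The factors that act on these genes bind short DNA motifs, so the sequence upstream of the start site was read first. RefSeq promoter entries (build GRCm38.p6, the same coordinates as mm10) were found for 7 of the 10 genes, Fos, Fosb, Junb, Egr2, Egr4, Npas4 and Nr4a1 and gave 11 windows of 250 bases, since Egr2 has several start sites. Arc, Egr1 and Egr3 had no entry. The letters TGACG or CGTCA, which form the core bound by CREB, stood in at least 1 window of all 7 genes and in 9 of the 11 windows, compared with 17.8% of 32851 mouse promoter windows of the same length. Of these 9 windows 3 belong to Egr2, overlap and hold the same 2 cores. The whole palindrome TGACGTCA, which contains both of these cores, stood in none of the 7 genes and in 1.55% of all windows. Within these 250 bases the CArG box bound by SRF stood in 1 gene, Egr2, and in 1.47% of all windows. The AP-1 motif TGANTCA, to which dimers of Fos and Jun proteins bind, stood in none of the 7 genes and in 6.75% of all windows. The EGR motif GCGNGGGCG stood in Fosb and Nr4a1 and in 4.70% of all windows. All motifs were searched on both strands, and a match describes letters only. Sites farther upstream, or with other letters, were not searched, so a missing match does not show that a gene lacks a site.

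The windows of 5 genes are shown, to set the 2 genes with the highest fold changes, Fos and Egr2, beside 3 that fell. Each line reads 5′ to 3′ on the strand of the gene and ends at the base before the RefSeq start site, with capitals marking the TGACG or CGTCA core and, in Egr2, also the CArG box. The windows are chr12:85473640-85473889 on the plus strand for Fos, chr10:67537619-67537868 on the plus strand for Egr2, chr6:85513590-85513839 on the minus strand for Egr4, chr19:4989972-4990221 on the minus strand for Npas4 and chr15:101266596-101266845 on the plus strand for Nr4a1.
Fos: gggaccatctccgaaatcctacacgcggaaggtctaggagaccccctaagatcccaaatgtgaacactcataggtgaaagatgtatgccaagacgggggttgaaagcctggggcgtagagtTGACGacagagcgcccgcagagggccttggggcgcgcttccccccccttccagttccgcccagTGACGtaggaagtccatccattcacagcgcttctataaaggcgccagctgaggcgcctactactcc
Egr2: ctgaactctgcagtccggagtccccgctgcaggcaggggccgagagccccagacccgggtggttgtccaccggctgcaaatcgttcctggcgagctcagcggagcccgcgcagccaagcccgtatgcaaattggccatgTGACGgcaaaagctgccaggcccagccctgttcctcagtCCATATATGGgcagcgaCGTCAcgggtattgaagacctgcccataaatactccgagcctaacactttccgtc
Egr4: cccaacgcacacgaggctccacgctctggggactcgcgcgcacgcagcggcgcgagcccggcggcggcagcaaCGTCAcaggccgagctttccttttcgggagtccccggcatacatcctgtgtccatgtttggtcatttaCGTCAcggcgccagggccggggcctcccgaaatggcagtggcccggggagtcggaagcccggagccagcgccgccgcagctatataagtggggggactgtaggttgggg
Npas4: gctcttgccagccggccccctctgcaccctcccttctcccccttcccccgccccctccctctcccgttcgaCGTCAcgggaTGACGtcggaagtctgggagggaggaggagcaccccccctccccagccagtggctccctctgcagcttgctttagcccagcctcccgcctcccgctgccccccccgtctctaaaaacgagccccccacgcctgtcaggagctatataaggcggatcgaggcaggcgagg
Nr4a1: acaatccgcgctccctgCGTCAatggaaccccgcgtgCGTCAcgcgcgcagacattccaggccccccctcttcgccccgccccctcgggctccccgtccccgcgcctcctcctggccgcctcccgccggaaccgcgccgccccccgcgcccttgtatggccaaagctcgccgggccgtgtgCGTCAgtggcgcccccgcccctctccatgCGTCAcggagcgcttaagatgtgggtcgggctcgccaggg
Counted back from the start site, the cores began at bases -129 and -66 in Fos, -177 and -109 in Egr4, and -179 and -169 in Npas4. Nr4a1 held 4 cores, beginning at -233, -213, -69 and -40. In Egr2 a CArG box from -72 to -63 lay between cores beginning at -111 and -55. Cores were thus present both upstream of Egr2, the gene that rose, and upstream of Egr4, Npas4 and Nr4a1, which fell.

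At 3 weeks after BCAS the immediate early genes did not move as one. Arc, Egr3, Egr4, Npas4 and Nr4a1 fell, Egr2 rose, and Fos, Fosb, Junb and Egr1 did not pass the test. Of the 10 genes, 6 were called at an adjusted P under 0.05 in edgeR's quasi-likelihood test, compared with 31.3% of all tested genes. The 5 lower genes compare with 13.2% of all tested genes and the 1 higher gene with 18.0%. Of these, 4 genes also passed an absolute log2 fold change of 1 and were counted as differentially expressed genes (DEGs), a share of 9.46% among all tested genes. They were 1 higher gene, Egr2 (8.47% of all tested genes), and 3 lower genes, Arc, Egr4 and Npas4 (0.999%). The median log2 fold change of the 10 genes was -0.70, beside 0.02 over all tested genes. In 8 genes the groups did not overlap, 7 lower and 1 higher, where 22.7% and 25.3% of all tested genes did so. Bulk tissue cannot tell fewer neurons from less RNA per neuron. The P values rest on the spread between 3 mice per group, which edgeR moderates by the spread of the other tested genes.

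**Figure D1:**
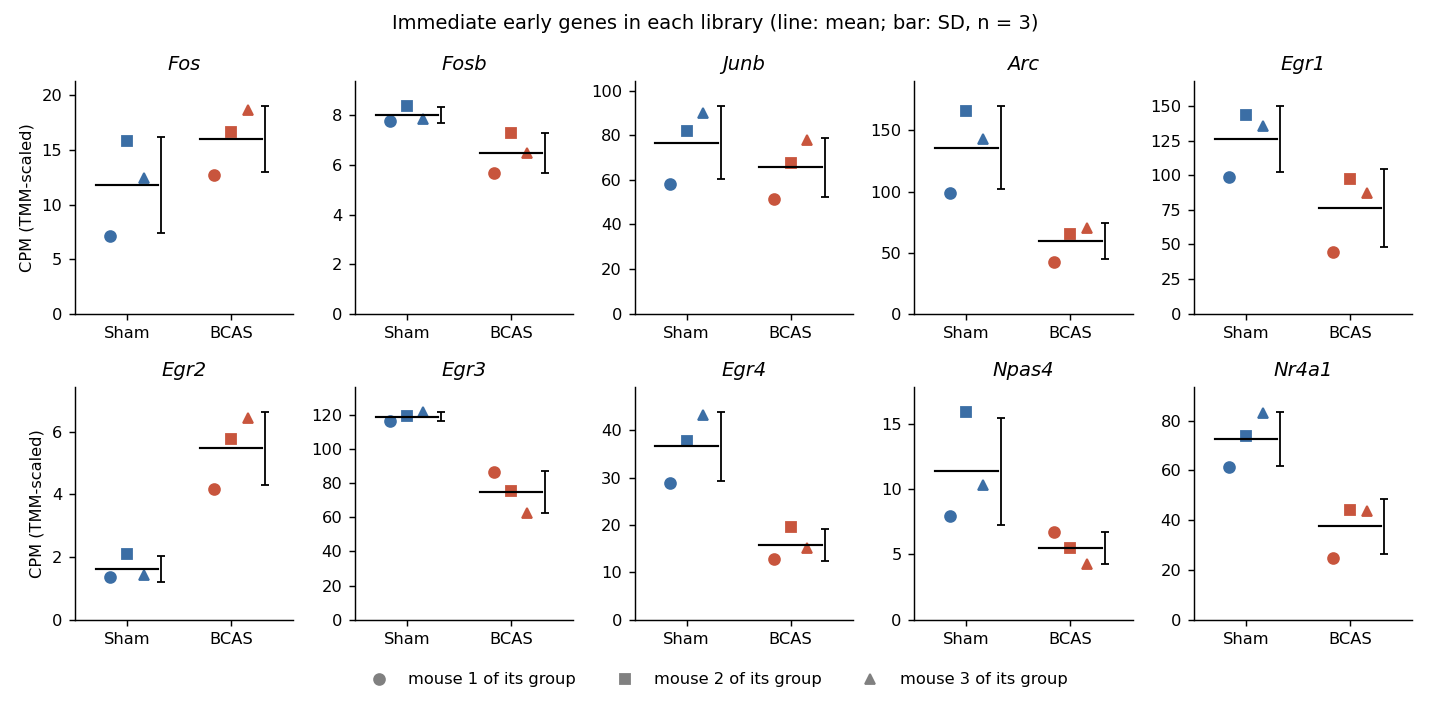
TMM-scaled CPM (vertical axes, each from 0) of the 10 immediate early genes in the 3 sham (blue) and 3 BCAS (red) libraries, with marker shapes for mouse number, lines for group means and bars for the SD (n = 3). The BCAS points lie below all sham points for 7 genes and above them for Egr2, and mouse 1 of each group is the lowest point for 8 of the 10 genes.

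Arc encodes a cytoskeleton-associated protein whose mRNA travels to active dendrites, where it drives removal of AMPA receptors from the synapse. Its gene lies at chr15:74669083-74672570 on the minus strand (build mm10). Arc stood at 99.2, 166 and 143 CPM in sham mice 1 to 3 and at 42.7, 65.6 and 70.4 CPM in BCAS mice 1 to 3. The highest BCAS library was therefore below the lowest sham library. The mean went from 136 ± 34.0 to 59.5 ± 14.8 CPM (SD, n = 3 each), 0.438 times the sham level. The log2 fold change was -1.19 (SE 0.22, edgeR adjusted P = 0.00406). With scaling to pan-neuronal markers it was -0.57 and not called (edgeR adjusted P = 0.0629). On a scale per kilobase of exon (RPKM), Arc had the highest mean of the 10 genes in sham mice, 44.5 ± 11.1, and in BCAS mice it averaged 19.5 ± 4.85, after Junb at 28.5 ± 5.72. The Arc and Junb ranges overlapped within each group.

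The EGR family of zinc-finger transcription factors, which recognise the same GC-rich motif, split in direction. Egr1, known as Zif268 and tied to long-term potentiation and memory, lies at chr18:34859823-34864984 on the plus strand. It stood at 98.8, 144 and 136 CPM in sham mice and 44.3, 97.3 and 87.0 CPM in BCAS mice. The groups did not overlap, but the gap between the lowest sham library and the highest BCAS library was small, and BCAS mouse 1 lay far below the other BCAS mice. Its log2 fold change of -0.73 (SE 0.26) did not pass the test (edgeR adjusted P = 0.0627). That P ranged from 0.00178 to 0.695 over the alternatives, and Egr1 was called when BCAS mouse 2 was left out (log2 fold change -0.95, adjusted P = 0.0240). Without BCAS mouse 1 its log2 fold change was -0.46 (adjusted P = 0.0626).

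Egr3, which muscle spindles need to form and which has been linked to hippocampal plasticity, lies at chr14:70077203-70082614 on the plus strand. It was the steadiest gene among sham mice, at 116, 119 and 121 CPM. In BCAS mice it stood at 86.7, 75.6 and 62.4 CPM, below every sham library. The mean fell to 0.630 times the sham level, with a log2 fold change of -0.67 (SE 0.11, edgeR adjusted P = 0.00258). With scaling to pan-neuronal markers that fold change was -0.08 and the call was lost (edgeR adjusted P = 0.627).

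Egr4, at chr6:85511121-85513589 on the minus strand, is a repressor that acts on its own promoter and on other EGR targets. It stood at 28.8, 37.6 and 43.2 CPM in sham mice and at 12.7, 19.5 and 15.1 CPM in BCAS mice. Every BCAS library was below every sham library, and the fold change was the most negative of the 10 (log2 -1.21, SE 0.19, edgeR adjusted P = 0.00179). The mean went from 36.6 ± 7.25 to 15.8 ± 3.45 CPM.

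Egr2, also called Krox20 and best known as the factor that Schwann cells need to form myelin, moved the other way. It lies at chr10:67535475-67542188 on the plus strand. The libraries held 46, 70 and 49 reads in sham mice and 136, 174 and 201 reads in BCAS mice, or 1.36, 2.10 and 1.43 CPM against 4.19, 5.77 and 6.44 CPM. It was the least abundant of the 10 genes in sham mice per length of exon, at 0.479 ± 0.120 RPKM, and in BCAS mice it reached 1.61 ± 0.341 RPKM. The lowest BCAS library was above the highest sham library. The mean rose 3.36-fold (log2 fold change 1.75, SE 0.26, edgeR adjusted P = 0.00135). Microglia markers rose in the same libraries. All 8 of that list were called higher, as were 18.0% of all tested genes. Their summed level was 309 to 321 CPM in sham mice and 1827 to 2948 CPM in BCAS mice. Csf1r, the receptor that microglia need to survive, averaged 86.4 ± 2.63 CPM in sham mice and 516 ± 141 CPM in BCAS mice. The part of microglia in the Egr2 rise was not tested.

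Npas4 encodes a factor that is largely restricted to neurons and responds to calcium entry rather than to growth factors. It lies at chr19:4984355-4989971 on the minus strand. Npas4 stood at 7.94, 15.9 and 10.3 CPM in sham mice and at 6.74, 5.50 and 4.26 CPM in BCAS mice. Sham mouse 2 was high, and the lowest sham library was only just above the highest BCAS library. Its log2 fold change was -1.05 (SE 0.27, edgeR adjusted P = 0.0178). The call was lost without sham mouse 2 (log2 fold change -0.73, adjusted P = 0.0575) and without BCAS mouse 3 (-0.90, adjusted P = 0.0549). Over all alternatives that P ran from 0.000401 to 0.164, the latter with scaling to pan-neuronal markers (log2 fold change -0.46).

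Nr4a1 encodes Nur77, an orphan nuclear receptor induced by activity in neurons and by antigen or inflammatory stimuli in immune cells. It lies at chr15:101254269-101274795 on the plus strand. It stood at 61.5, 73.7 and 82.9 CPM in sham mice and at 24.8, 44.1 and 43.6 CPM in BCAS mice. No BCAS library reached the sham range, and the mean was 0.516 times that of sham mice (log2 fold change -0.96, SE 0.21, edgeR adjusted P = 0.00869). Scaling to pan-neuronal markers gave -0.34 and no call (edgeR adjusted P = 0.222).

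Fos, Fosb and Junb, subunits that pair through leucine zippers to form the dimeric factor AP-1, did not pass the test. Fos, the classical marker of recently active neurons at chr12:85473890-85477273 on the plus strand, stood at 7.14, 15.8 and 12.5 CPM in sham mice and at 12.7, 16.6 and 18.7 CPM in BCAS mice. The groups overlapped, with sham mouse 2 above BCAS mouse 1, and sham mouse 1 was the lowest of all 6. Its log2 fold change was 0.44 (SE 0.26, edgeR adjusted P = 0.244). It ranged from 0.17 without sham mouse 1 to 0.70 without sham mouse 2, and neither fit called it.

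Fosb, at chr7:19302696-19310051 on the minus strand, also makes a truncated and long-lived splice form that gene counts cannot separate. It stood at 7.79, 8.38 and 7.84 CPM in sham mice and 5.69, 7.29 and 6.48 CPM in BCAS mice. The groups did not overlap, but the difference was small (log2 fold change -0.30, SE 0.15, edgeR adjusted P = 0.148). Junb, a Jun protein that can restrain c-Jun, lies at chr8:84974484-84978718 on the minus strand. It stood at 58.3, 82.1 and 89.9 CPM in sham mice and 51.6, 67.7 and 77.7 CPM in BCAS mice, with overlap (log2 fold change -0.22, SE 0.18, edgeR adjusted P = 0.384). Its log2 fold change ran from -0.39 without sham mouse 1 to -0.08 without BCAS mouse 1, and was -0.10 without sham mouse 3 and -0.37 without BCAS mouse 3. Junb shares 173 exonic bases with Prdx2 on the opposite strand. Counting ignored strand, so reads from those bases cannot be told apart. Fosb and Junb turned to 0.29 and 0.41 when libraries were scaled to neuronal markers (adjusted P = 0.253 and 0.133), and neither was called there. Over the 16 alternatives these P values ran from 0.0835 to 0.365 for Fosb and from 0.0766 to 0.776 for Junb.

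Per length of exon, the sham levels fell in the order Arc, Junb, Egr1, Egr3, Nr4a1, Egr4, Fos, Npas4, Fosb and Egr2. Neighbours in this order had ranges that did not overlap between Egr3 and Nr4a1, Egr4 and Fos, Npas4 and Fosb, and Fosb and Egr2, and all other neighbours overlapped. In BCAS mice the order was Junb, Arc, Egr3, Egr1, Nr4a1, Egr4, Fos, Npas4, Egr2 and Fosb. There only Fos and Npas4, and Egr2 and Fosb, had ranges apart. Fos averaged 5.02 ± 1.86 RPKM against 17.0 ± 3.37 for Egr4 in sham mice, and 6.80 ± 1.29 against 7.35 ± 1.61 in BCAS mice, where the Fos and Egr4 ranges met.

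Within each group the lowest library was the same for most of the 10 genes, while the highest varied. Sham mouse 1 was the lowest sham library for 10 of 10 genes, while it was the lowest for 34.2% of all tested genes. BCAS mouse 1 was the lowest BCAS library for 8 of 10 genes, against 28.9% of all tested genes. The exceptions were Egr3 and Npas4, for which BCAS mouse 1 was the highest and BCAS mouse 3 the lowest. Averaged over the genes, sham mice 1 to 3 deviated from their group mean by -0.31, 0.22 and 0.09 on the log2 scale, and BCAS mice 1 to 3 by -0.26, 0.17 and 0.09. For 8 genes mouse 1 was lowest in both groups, which held for 11.4% of all tested genes. The 10 genes share libraries and are not independent, so these counts describe 6 mice. The labels do not say whether a sham mouse and a BCAS mouse of the same number were handled together, and this was not tested.

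**Figure D2:**
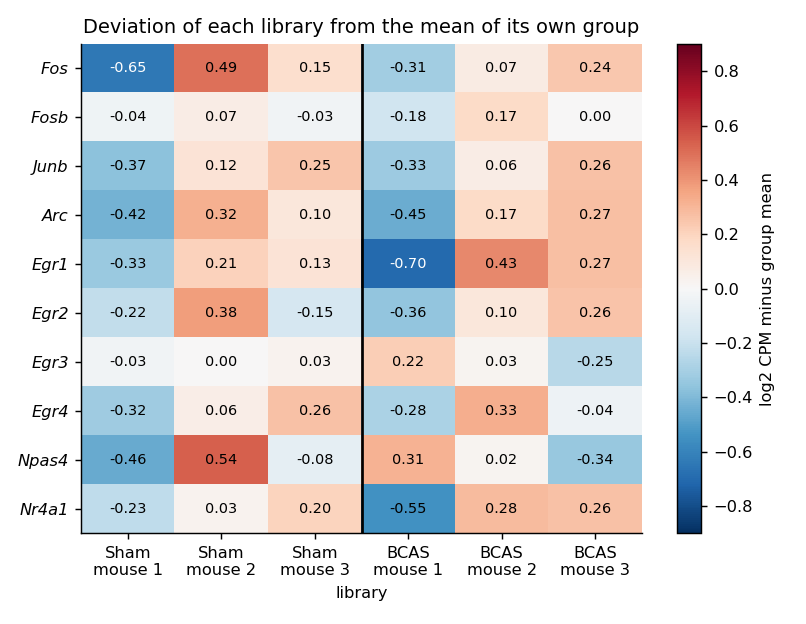
Log2 CPM of each gene minus the mean of its own group, for the 3 sham libraries (left) and the 3 BCAS libraries (right), with color and printed value giving the deviation. Both libraries numbered 1 are blue for most genes, while Egr3 and Npas4 are positive in BCAS mouse 1.

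The spread between mice differed among the genes. Fos varied 2.21-fold and Npas4 2.002-fold between the lowest and highest sham mouse, and Fos had a higher log2 SD in sham mice than 91.4% of all tested genes. Egr1 varied 2.19-fold among BCAS mice and exceeded 91.1% of all tested genes there. Egr3 and Fosb varied 1.04-fold and 1.08-fold among sham mice, which placed Egr3 at percentile 5.96 and Fosb at percentile 16.9. Genes with wide and narrow spread were therefore present on both sides of the test.

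Depth, RNA make-up and stress genes were compared with the low position of the libraries numbered 1. Sham mouse 1 had 34478313 counts, between the other sham libraries, and BCAS mouse 1 had 31892083, the most in its group. Mitochondrial genes took 6.90% of counts in sham mouse 1, the lowest sham value, and 6.07% in BCAS mouse 1, between the other BCAS mice. The range over all 6 libraries was 6.02% to 6.99%. Heat shock genes summed to 1578 CPM in sham mouse 1, the highest sham value, and to 1143 CPM in BCAS mouse 1, between the other BCAS mice. Glucocorticoid targets summed to 282 CPM in sham mouse 1, the lowest sham value, and to 304 CPM in BCAS mouse 1, again between the others. Single genes of these lists differed from the sums, which Hsp90aa1 and Sgk1 lead. Hspa1a, an inducible heat shock gene, and the glucocorticoid targets Tsc22d3 and Per1 were lowest in mouse 1 of both groups. These 3 genes were named after their values were seen. They were 1 of 7 heat shock genes and 2 of 7 glucocorticoid targets, against 11.4% of all tested genes. Other rapidly induced genes were also often lowest in these mice. Mouse 1 was lowest in both groups for 7 of 16 rapid transcription factors and 8 of 16 rapid feedback genes. This held for 11.4% of all tested genes, 2 of 12 delayed activity-regulated effectors, 2 of 18 upstream genes and 1 of 10 pan-neuronal markers. Sham mouse 1 alone was lowest in its group for 7 of 10 pan-neuronal markers (34.2% of all tested genes), and BCAS mouse 1 for 1 of 10 (28.9%). The part of handling in these low values was not tested.

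The ratio between these genes within a library does not depend on its scaling, and was taken after the data were seen. Relative to Fos, all 9 other genes separated the groups, 8 lower and Egr2 higher in BCAS mice, where 20.8% of all other tested genes did so, 15.1% lower and 5.74% higher. Each had an exact two-sided permutation P of 0.1, the smallest that 3 mice against 3 allow. Except for Junb, the 9 genes also separated the groups on the CPM scale without the ratio. The 9 ratios share the Fos values, whose own log2 fold change of 0.44 lowers the ratio of a gene at the same level in both groups. The log2 ratio of Arc to Fos was 3.78, 3.39 and 3.51 in sham mice and 1.74, 1.98 and 1.91 in BCAS mice. The group means differed by -1.68, compared with an SD of 0.20 among sham and 0.12 among BCAS mice. The ratio of Egr4 to Fos differed by -1.70 and that of Nr4a1 to Fos by -1.48. Junb to Fos, with groups that overlapped on the CPM scale, was 3.02, 2.37 and 2.84 in sham mice and 2.02, 2.02 and 2.05 in BCAS mice. Egr2 to Fos was -2.34, -2.88 and -3.07 in sham mice and -1.59, -1.52 and -1.53 in BCAS mice. Sham mouse 1 had the highest sham ratio for all 9 genes, which share its low Fos value.

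**Figure D3:**
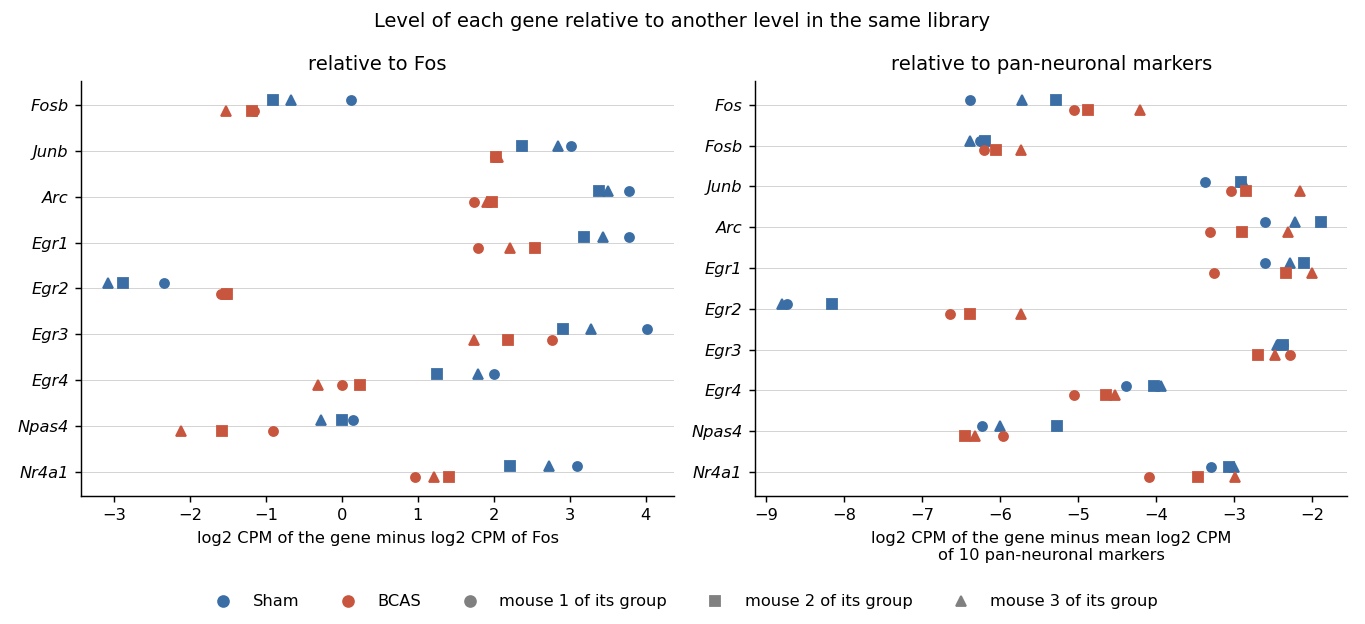
Log2 CPM of each gene minus log2 CPM of Fos (left) or minus the mean log2 CPM of 10 pan-neuronal markers (right), with a point for each library, blue for sham and red for BCAS. Relative to Fos all 9 genes separate the groups (20.8% of all tested genes), and relative to the neuronal markers Fos, Egr2 and Egr4 do (69.4% of all tested genes, nearly all of them higher).

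Pan-neuronal marker mRNA was lower in the same libraries. Of 10 pan-neuronal markers, 8 fell in edgeR, against 13.2% of all tested genes, with a median log2 fold change of -0.59. The other 2 were below 0 without passing in edgeR. DESeq2 called all 10 lower and limma-voom 9. Their summed level was 7850 to 8586 CPM in sham mice and 4487 to 6397 CPM in BCAS mice. Snap25 and Syt1, proteins of synaptic vesicle fusion, averaged 2146 ± 162 and 1795 ± 71.3 CPM in sham mice and 1324 ± 253 and 1218 ± 268 CPM in BCAS mice. Relative to the mean of these markers in the same library, Egr4 was lower in BCAS mice by 0.62 on the log2 scale, Fos was higher by 1.09 and Egr2 higher by 2.31, each without overlap (exact permutation P = 0.1). On this scale 68.1% of all tested genes were higher without overlap and 1.23% were lower. The other 7 genes overlapped. Relative to the markers, Arc stood at -2.60, -1.89 and -2.22 in sham mice and at -3.31, -2.90 and -2.30 in BCAS mice. Nr4a1 stood at -3.29, -3.07 and -2.998 in sham mice and at -4.09, -3.47 and -2.99 in BCAS mice, so BCAS mouse 3 lay within the sham range for Arc and just above it for Nr4a1. Egr3 differed from sham by -0.09 on this scale.

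Scaling all libraries to these markers moved the median log2 fold change of all tested genes from 0.02 to 0.62. Under it 3 of the 10 genes were called by edgeR, compared with 57.3% of all tested genes. Fos and Egr2 were called higher, as were 56.8% of all tested genes, and Egr4 lower, as were 0.526%. Fos then had a log2 fold change of 1.06 (adjusted P = 0.0126) and Egr4 of -0.62 (adjusted P = 0.0231). Arc went to -0.57 (adjusted P = 0.0629), Npas4 to -0.46, Nr4a1 to -0.34 and Egr3 to -0.08, none of them called. Over the 16 alternatives the adjusted P ran from 0.0126 to 0.563 for Fos, from 1.6e-09 to 0.0231 for Egr4 and from 2.94e-08 to 0.0629 for Arc. Egr2 and Egr4 were called under all 16.

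**Figure D4:**
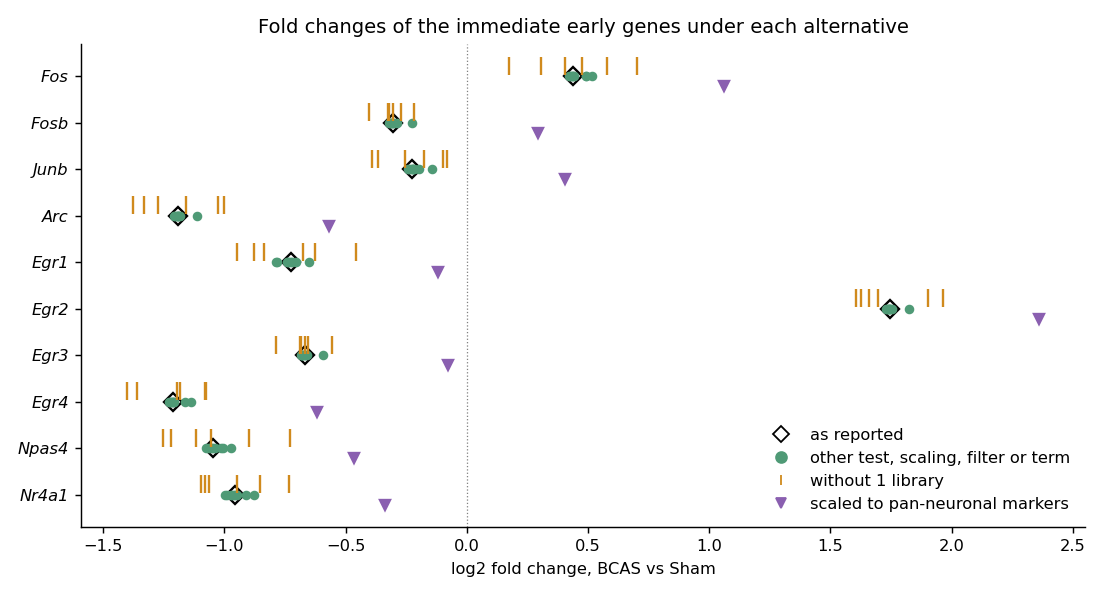
Log2 fold change (BCAS vs sham) of each immediate early gene as reported (diamonds), under other tests, scalings, filters or model terms (circles), without 1 library (ticks) and after scaling to pan-neuronal markers (triangles). Scaling to the markers shifts all genes to the right and turns Fosb and Junb positive, while the other alternatives keep each direction.

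Genes induced on the same rapid time scale were also divided. Of 16 further rapid transcription factors, 5 rose, 3 fell and 8 did not pass the test, with a median log2 fold change of 0.10. Among all tested genes 18.0% rose and 13.2% fell. Without sham mouse 1, 5 of the 16 were called, 3 higher and 2 lower, where 12.9% and 7.61% of all tested genes were. Atf3, a stress-induced partner of AP-1 proteins, rose from 0.896 ± 0.00940 to 11.6 ± 2.91 CPM (log2 fold change 3.68, SE 0.23, edgeR adjusted P = 2.03e-05). Maff, a small Maf protein, rose by 2.37 on the log2 scale and Klf2, a factor of endothelial and immune cells, by 0.85. Nr4a3, a close relative of Nr4a1, fell by 1.15 on the log2 scale, from 102 ± 8.70 to 45.9 ± 15.7 CPM (edgeR adjusted P = 0.00369). Klf10 fell by 0.91. Nr4a2, the other gene of the Nr4a family, named after its values were seen, overlapped between the groups and was not called (log2 fold change -0.31, edgeR adjusted P = 0.383). With scaling to pan-neuronal markers 9 of the 16 were called higher, near the 56.8% of all tested genes, and 1 lower.

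Rapid feedback and signalling genes limit the response. Of 16, 5 rose, 2 fell and 9 did not pass in edgeR, with a median of 0.07. Over all tested genes 18.0% rose and 13.2% fell, so the 2 falls lie near the all-gene share. Zfp36, an RNA-binding protein that speeds decay of AU-rich mRNAs, rose from 5.52 ± 0.624 to 21.6 ± 3.46 CPM (log2 fold change 1.97, SE 0.15, edgeR adjusted P = 4.77e-05). The matrix protein gene Ccn1 rose by 1.58 and the kinase-like Trib1 by 0.63 on the log2 scale. Dusp5 and Dusp4, phosphatases that switch off nuclear ERK, fell by 1.03 and 0.80. With scaling to pan-neuronal markers 9 of the 16 were called in edgeR, each of them higher, a share near the 56.8% of all tested genes.

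The delayed effectors, secreted and synaptic proteins made after the first wave, mostly fell. This list, like the other lists, was chosen with earlier results of these data known. Of 12 genes, 10 fell, 1 rose and 1 did not pass the test, and the median log2 fold change was -0.83. By comparison, 13.2% of all tested genes fell and 18.0% rose. Nptx2, which gathers AMPA receptors at synapses, fell from 27.8 ± 2.68 to 11.2 ± 2.33 CPM (log2 fold change -1.31, SE 0.16, edgeR adjusted P = 0.000429). Bdnf, a neurotrophin that sustains synapses, stood at 53.3, 54.3 and 57.4 CPM in sham mice and fell to 33.7, 22.4 and 26.2 CPM in BCAS mice (log2 fold change -1.004, edgeR adjusted P = 0.000922). Vgf, Ptgs2 and Nrn1 fell by 0.94, 0.89 and 0.88. The gene that rose was Rgs2, a regulator of G protein signalling named here after its value was seen, at 0.47. When sham mouse 1 was left out, 7 of the 12 were called, each lower, compared with 7.61% of all tested genes. With scaling to pan-neuronal markers 3 were called, 1 higher and 2 lower, where 56.8% of all tested genes were higher and 0.526% lower.

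Upstream of the immediate early genes, receptors and kinases of the calcium pathway were lower or not called. Of 18 genes, 7 fell and 11 did not pass in edgeR, with a median log2 fold change of -0.23. Over all tested genes 13.2% fell and 18.0% rose. The NMDA receptor subunit genes Grin2a, Grin2b and Grin1 fell by 1.17, 0.77 and 0.62 on the log2 scale. Camk2a and Camk2b, the calcium-dependent kinase subunits, fell from 3292 ± 99.9 to 2021 ± 418 CPM and from 1165 to 704 CPM. When sham mouse 1 or sham mouse 2 was left out, 4 of the 18 were called, each lower, where 20.5% and 21.0% of all tested genes were called and 7.61% and 7.39% were lower. Scaling to pan-neuronal markers gave 9 higher, a share near the 56.8% of all tested genes, and 1 lower.

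**Figure D5:**
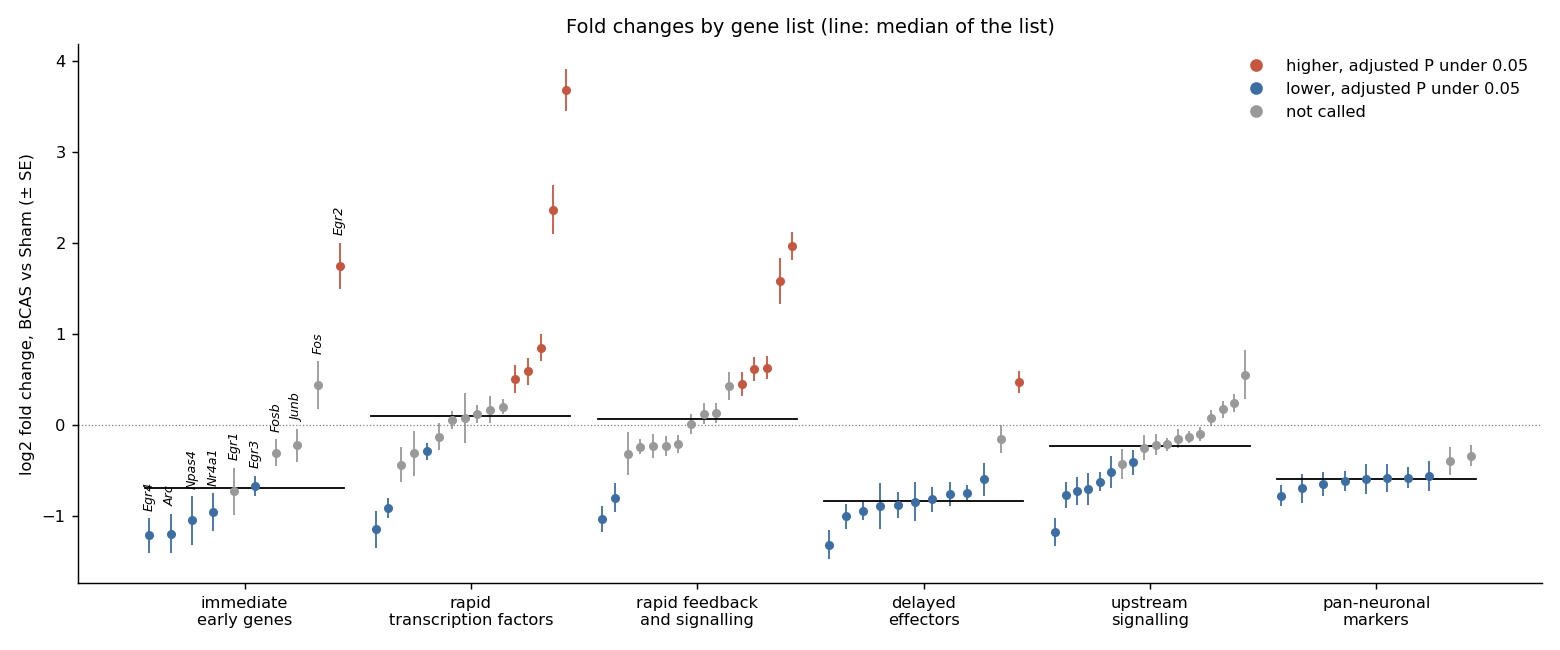
Log2 fold changes (BCAS vs sham, bars SE) of the 10 immediate early genes, 4 lists of related genes and 10 pan-neuronal markers, ordered within each list, with black lines at list medians. Red and blue points passed an adjusted P of 0.05 and grey points did not, and the median is -0.83 for the delayed effectors, 0.10 for the rapid transcription factors and 0.07 for the rapid feedback genes.

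Other cell types moved as well, and over all tested genes 18.0% were called higher and 13.2% lower in edgeR. Astrocyte markers rose in 5 of 5, from a summed 1359 to 1499 CPM in sham mice to 5326 to 5834 CPM in BCAS mice, with Gfap at 375 ± 45.1 and 3678 ± 238 CPM and Slc1a3 at 581 ± 11.9 and 912 ± 6.85 CPM. Endothelial markers rose in 4 of 6, including Flt1 and Slco1a4. None of 5 oligodendrocyte markers, 6 choroid plexus markers and 4 globin genes passed in edgeR, where 1, 0 and 3 had an unadjusted P under 0.05, and DESeq2 called 1, 0 and 2 of them and limma-voom 0 of each. Markers of CA1 neurons fell in 3 of 5, of dentate granule cells in 2 of 5 and of interneurons in 5 of 6, including Gad1 and Sst. Heat shock genes had 3 lower and 1 higher of 7, and glucocorticoid targets 1 lower and 2 higher of 7. The counts of 1 of 7 lie near the all-gene shares. Of the glucocorticoid targets, Sgk1, Per1 and Errfi1 also stand in the feedback list. No listed gene was at 3 counts or fewer in any library. The part of these cell types in the results for the immediate early genes was not tested.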

How the data were processed

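Hippocampal RNA from 3 sham mice and 3 BCAS mice was sequenced with a kit that does not mark strand. Raw counts per gene were deposited, made by the authors with featureCounts from trimmed reads aligned to mm10 by HISAT2. The submitters' processing notes give featureCounts 1.6.3, while the file headers give 2.0.3 and GENCODE M20. Per the file headers both mates were counted as reads, strand was ignored and multi-mapping reads were left out. Of the 54752 genes, 54723 matched a symbol.

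Groups came from the labels. The deposited counts were scaled by TMM and tested in edgeR 4.0.16 (R 4.3.3) by the quasi-likelihood method over 18617 genes that passed filterByExpr, with Benjamini-Hochberg adjustment over the same genes. A call required an adjusted P under 0.05. Log2 CPM used a prior count of 2. DESeq2 1.42.0, limma-voom (limma 3.58.1), other scalings and filters, halved counts, a replicate block and leaving out each mouse were alternatives, and a choroid plexus covariate was chosen after seeing the data. The steps were tested on simulated data. RPKM divided CPM by exon length. Depth of 29652456 to 35607098 counts put 3 counts at 0.0875 to 0.0995 CPM.

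The members, lists and tests were chosen with earlier results of these data known. Genes named are all 10 members, the called genes of 4 pathway lists up to the 5 largest fold changes, the 2 most abundant genes of each stress or cell type list (1 is not reported here), and the 5 genes nearest to the mean profile of the members.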

Additional observations from a re-analysis of the deposited data

How the results depend on the processing

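Each result was recomputed under 16 alternatives. In 251 comparisons a fold change kept its direction and its side of the threshold, or a count or median stayed close to the reported one, while 8 values moved, 6 calls were lost, 5 were gained and 2 directions reversed. Scaling to pan-neuronal markers accounted for 11 of these changes. Under it 3 of the 10 immediate early genes were called, DEGs numbered 2, the delayed effectors called numbered 3, and the median of the 10 genes was -0.10. The total called stayed within 1.5 times for the other 3 lists, but their split turned to 9 higher and 1 lower for upstream genes and for rapid transcription factors and to 9 called, each higher, for feedback genes. Fosb reversed to 0.29 and Junb to 0.41. Its construction holds the neuronal markers level, and 10667 genes were then called, 10569 of them higher, compared with 5819 and 3356 as reported. Library totals moved the split of all calls to 3859 higher and 1788 lower.

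Leaving out each mouse gave 5 to 7 called immediate early genes, 3 to 5 DEGs, a median of -0.82 to -0.59, 5 to 8 rapid transcription factors, 6 to 8 feedback genes, 7 to 10 delayed effectors and 4 to 9 upstream genes. The rapid transcription factors (5) and delayed effectors (7) were lowest without sham mouse 1, and the upstream genes (4) without sham mouse 1 or 2. All-gene calls ran from 3782 to 6646, so fewer samples also changed the background. Egr1 was called with no filter beyond 1 count (adjusted P = 0.00178), with the choroid plexus covariate (0.0432), and without BCAS mouse 2, and the cause was not tested.

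The labels number the mice but state no pairing of sham with BCAS mice. Over all tested genes, residual correlations of same-numbered libraries were 0.036, -0.31 and -0.16. These values cannot tell whether same-numbered mice shared a session or an order of handling. With the number as a replicate block 4532 genes were called, and 7 of the 10 immediate early genes, with Egr1 added at a log2 fold change of -0.78 (edgeR adjusted P = 0.00719).

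Egr2 rests on 46 to 70 reads in sham mice, and its log2 fold change ran from 1.61 to 1.97 as single mice were left out. With 3 mice a group, a call missed here does not show equal levels.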

Other observations

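The genes whose levels over the 6 libraries lay nearest to the mean profile of the 10 immediate early genes were AA414768, Zfp109, Gm49593, Pla2g4e and Kcnab3. Likeness was the root mean square distance between centred log2 CPM profiles, among genes with a mean of at least 1 CPM. The distances were 0.053, 0.080, 0.087, 0.090 and 0.105. The mean profile itself was -0.10, 0.43 and 0.29 in sham mice 1 to 3 and -0.47, -0.04 and -0.12 in BCAS mice 1 to 3. Kcnab3, a potassium channel beta subunit gene, stood at 25.5, 31.0 and 29.0 CPM in sham mice and at 18.1, 21.0 and 21.6 CPM in BCAS mice, and it fell by 0.49 on the log2 scale (edgeR adjusted P = 0.0120). Pla2g4e, a phospholipase A2 gene, stood at 6.82, 8.80 and 7.67 CPM in sham mice and at 5.11, 6.23 and 5.71 CPM in BCAS mice and did not pass the test. The members themselves lay farther from their own mean, from 0.15 for Fosb and Junb to 1.08 for Egr2. The genes named above were picked for the smallest distances, so this contrast largely follows from the choice. The mean also joins Egr2, which rose, with genes that fell.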
